A study of Mus musculus with 14 samples.

Results

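The small leucine-rich proteoglycans (SLRPs) are secreted matrix proteins built around a stretch of leucine-rich repeats. Their levels were examined in cultured skeletal clones with and without p53. The members were the 10 SLRP genes decorin (Dcn), biglycan (Bgn), lumican (Lum), fibromodulin (Fmod), osteomodulin (Omd), osteoglycin (Ogn), asporin (Aspn), Prelp, keratocan (Kera) and epiphycan (Epyc), chosen by name and family. They are 10 of the 30503 genes of the count table, and 8 of them were among the 17358 genes with enough counts to be tested; Kera and Epyc were not.

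SLRPs bind collagen fibrils through their repeats and set how fibrils pack and how thick they grow, and several of them hold growth factors of the TGF-beta and BMP families in the matrix. Decorin and biglycan carry chains of chondroitin or dermatan sulfate, whereas lumican, fibromodulin, keratocan and osteomodulin can carry keratan sulfate. In the skeleton they are made by osteoblasts, chondrocytes and tendon cells, and biglycan and osteomodulin are long known from bone matrix.

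Bulk RNA-seq had been performed on 14 clones, each grown from a single tdTomato+ colony of mouse femoral marrow cells. All mice carried Fgfr3-creER, a tamoxifen-inducible cre expressed from a transgenic artificial chromosome under Fgfr3 regulatory sequence, together with the R26R-tdTomato reporter, and all were pulsed with tamoxifen at P21. The 5 Fgfr3-WT (P23) clones had intact Trp53 and came from mice at postnatal day 23. The 5 Fgfr3-p53 cKO (P28) clones and the 4 Fgfr3-p53 cKO (P4M) clones also carried Trp53 fl/fl and came from mice at postnatal day 28 and at 4 months. By the sample records RNA was taken at passage 8, or at passage 6 to 8 for P4M. The study's methods instead give passage 6 to 8 for the cKO clones of both ages. By the study's account Fgfr3-WT clones spent longer in culture before passage 8, so that time in culture and genotype cannot be told apart. Each clone is 1 cell's progeny that survived serial passage, so it stands for the clones that grow in culture rather than for all marked cells of the marrow. Nothing in the labels ties clones to separate mice, so the p values measure the spread between these clones. The Fgfr3-WT libraries share 1 number in their names (1303) and the cKO libraries another (2963). The labels do not say what this number stands for, and it cannot be told apart from genotype. Age and genotype are joined in the same way between the Fgfr3-WT and cKO groups.

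The libraries held between 25688946 and 52857424 counts. Trp53 was at 38.1 to 59.7 TPM (a transcript level scaled for gene length and depth) in the 5 Fgfr3-WT clones and at 1.55 to 2.80 TPM in the 9 cKO clones. The mesenchymal genes Prrx1, Pdgfra, Pdgfrb and Twist1 were present in every clone, with a summed level of 109.5 to 544.5 TPM. The summed level of 6 osteoblast genes was 18.7 to 449 TPM in Fgfr3-WT, 4104 to 7138 TPM in P28 and 3818 to 16690 TPM in P4M. Ibsp, an osteoblast matrix gene, had a median of 0 TPM in Fgfr3-WT. In P28 most of the sum was Col1a1 (4023 to 6206 TPM). Sp7, Alpl, Bglap and Ibsp had P28 medians of 5.54, 39.5, 4.47 and 1.34 TPM, with highest values of 175, 1358, 954 and 405 TPM. Their P4M medians were 215, 776, 1331 and 401 TPM, and edgeR called none of them between P4M and P28. The summed level of 6 chondrocyte genes, led by Col2a1, was 222 to 5787, 69.2 to 712 and 9.86 to 17.6 TPM. Within that list Comp had a higher median in P28 (55.5 TPM) than in Fgfr3-WT (4.77 TPM) without passing the test, and Matn3, under 1 TPM in all Fgfr3-WT clones, was called higher in P28 (log2 fold change 2.38, edgeR adjusted p = 0.0304). Tendon genes summed to 43.3 to 145 TPM over all clones, almost all of it Scx and Mkx, with Tnmd at 0 in Fgfr3-WT. Reticular and adipocyte genes summed to 2.34 to 189, 285 to 413 and 72.8 to 289 TPM, of which Cxcl12 made the most in both cKO groups, whereas in Fgfr3-WT its median was 0.34 TPM beside 5.59 TPM for Pparg; Adipoq and Plin1 were at most 0.20 TPM. Among blood genes all but Cd68 were at most 0.11 TPM. Cd68 was at 5.46 to 66.0 TPM in Fgfr3-WT, 1.67 to 3.77 in P28 and 2.12 to 9.13 in P4M. It was called lower than in Fgfr3-WT in P28 (edgeR adjusted p = 0.00275) and in P4M (0.0104). Endothelial genes summed to at most 3.26 TPM, with Cdh5 at 0 throughout. Fgfr3-WT clone 1 alone had Y-linked transcripts (Ddx3y at 42.7 TPM, Xist at 0.11 TPM).

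Summed over the 10 members, SLRP transcripts were at 1432, 9342, 4150, 5791 and 7764 TPM in Fgfr3-WT clones 1 to 5. The P28 clones held 4894, 2370, 3875, 3238 and 658 TPM, and the P4M clones 2057, 1957, 1487 and 2062 TPM. The group means were 5696 ± 3088 (SD, n = 5), 3007 ± 1604 (SD, n = 5) and 1891 ± 273 TPM (SD, n = 4). Fgfr3-WT clones 2, 4 and 5 were the highest of all, but clone 1 fell below every P4M clone, so the groups overlapped. Biglycan was the first member by level in 13 of 14 clones and made 46.7 to 86.3% of the sum in Fgfr3-WT and 85.5 to 95.8% in P4M. Only P28 clone 5 departed from this, with biglycan at 12.6% and osteomodulin at 39.3%. Behind biglycan, fibromodulin ranked second by median level in Fgfr3-WT, osteoglycin in P28 and osteomodulin in P4M.

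**Figure D1:**
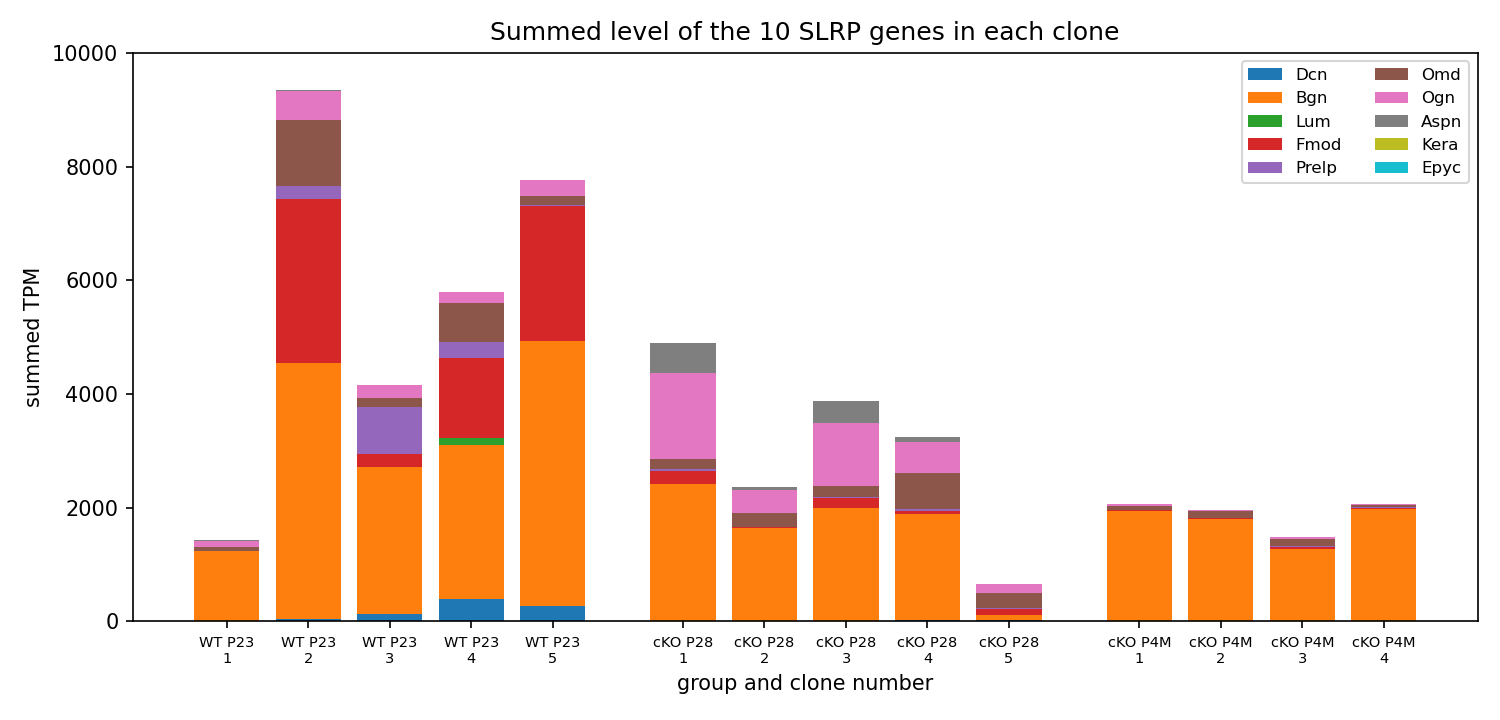
Stacked bars of the level in TPM (y axis, linear from 0) of the 10 SLRP genes in each of the 14 clones (x axis, by group and clone number). Biglycan was the largest piece of each bar except in P28 clone 5, fibromodulin made 24.4 to 30.8% of the bar in Fgfr3-WT clones 2, 4 and 5, and biglycan made 85.5 to 95.8% of it in P4M.

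Against Fgfr3-WT, 4 of the 8 tested members fell in P28 (Dcn, Lum, Fmod and Prelp) and 1 rose (Aspn), where 19.7% of all tested genes were called lower and 19.2% higher. In P4M 6 of 8 fell (the same 4 genes with Omd and Ogn), beside 23.6% of all genes lower and 22.3% higher. Between the cKO groups, 1 of 8 was lower in P4M (Ogn), beside 3.88% lower and 3.34% higher (4.64% and 2.3% with no scaling). With both cKO groups against Fgfr3-WT, 6 of 8 were lower, beside 25.7% lower and 23.1% higher. The median log2 fold change of the 8 members was -2.51 in P28, -4.92 in P4M and -3.29 in all cKO clones, with Fgfr3-WT as the reference, and -1.84 for P4M relative to P28; over all tested genes these medians were -0.02, -0.06, -0.05 and -0.01. Calls are those of edgeR's quasi-likelihood test on raw counts at an adjusted p below 0.05, and the 3 comparisons with Fgfr3-WT share its 5 clones. These are bulk values of cultures, in which fewer cells of a type and less RNA per cell cannot be told apart.

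**Figure D2:**
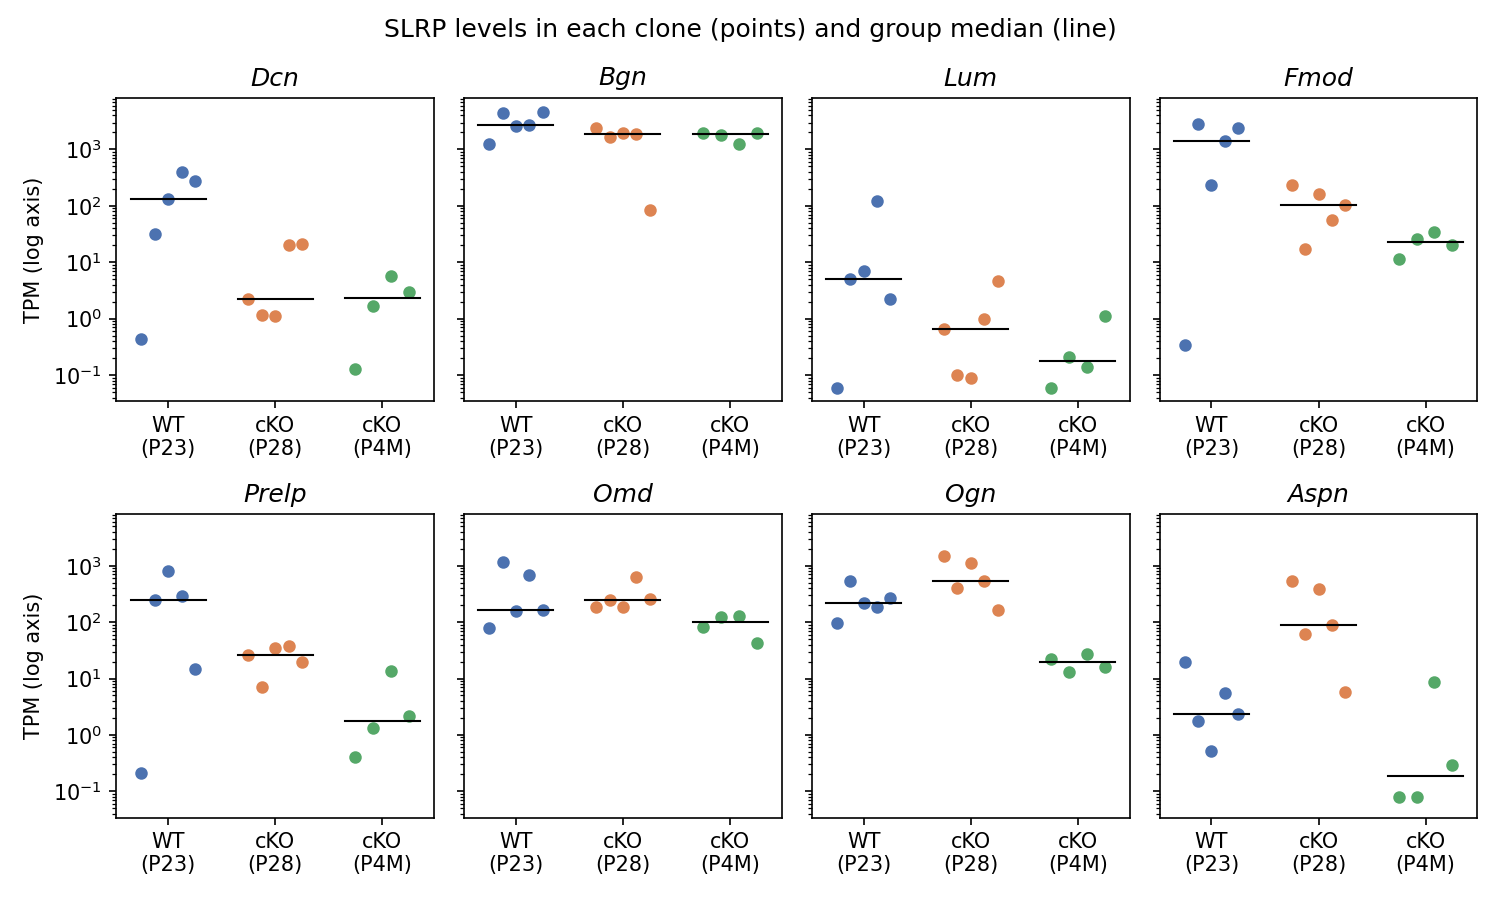
Level in TPM (y axis, log scale) of the 8 tested members in every clone (points, clone 1 at the left of each group) with the group median as a line. Dcn, Lum, Fmod and Prelp spread over several orders of magnitude in Fgfr3-WT with clone 1 at the bottom, and the P4M points of Ogn lie apart from all others.

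Decorin, which carries a single sulfated chain and binds collagen fibrils and TGF-beta, was at 0.43, 31.9, 132, 397 and 271 TPM in Fgfr3-WT clones 1 to 5. It was at 2.19, 1.15, 1.11, 19.9 and 20.8 TPM in P28. In P4M it was at 0.13, 1.69, 5.80 and 3.02 TPM. Fgfr3-WT clones 2 to 5 were above every cKO clone, whereas clone 1 was below all P28 clones and below 3 of the 4 P4M clones. Dcn was 24.2-fold lower in P28 than in Fgfr3-WT (log2 fold change -4.60 with an SE of 1.44, adjusted p = 0.0222) and 70.0-fold lower in P4M (log2 fold change -6.13 with an SE of 1.72, adjusted p = 0.0107). The cKO groups were not shown to differ (log2 fold change -1.53 with an SE of 1.39, adjusted p = 0.523; 95% interval -4.52 to 1.46). The P28 call missed the threshold with limma on log2(TPM + 1), at an adjusted p of 0.0559.

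Biglycan, the close relative of decorin with 2 chain attachment sites, was the most abundant member. Its level was 1236, 4509, 2578, 2701 and 4654 TPM in Fgfr3-WT. The P28 clones had 2413, 1631, 1994, 1863 and 83.0 TPM and the P4M clones 1942, 1794, 1272 and 1975 TPM. Fgfr3-WT clones 2 to 5 lay above all 9 cKO clones, clone 1 was below all of them but P28 clone 5, and P28 clone 5 was far below every other clone. By its median, Bgn ranked 41 among all genes in Fgfr3-WT, 70 in P28 and 78 in P4M. No comparison passed the test: P28 against Fgfr3-WT gave a log2 fold change of -1.25 with an SE of 0.60, adjusted p = 0.118 and a 95% interval of -2.55 to 0.05. P4M against Fgfr3-WT gave a log2 fold change of -0.94 with an SE of 0.64, adjusted p = 0.251 and an interval of -2.32 to 0.45. P4M against P28 gave a log2 fold change of 0.31 with an SE of 0.63, adjusted p = 0.8, with an interval of -1.04 to 1.67. Without P28 clone 5, the lower level in P28 passed (log2 fold change -0.97, adjusted p = 0.0408 by edgeR), as did that in P4M (-0.94, adjusted p = 0.0366). In all cKO against Fgfr3-WT it passed without that clone (adjusted p = 0.0128) or without Fgfr3-WT clone 1 (adjusted p = 0.0497), against 0.0947 with all clones. Bgn is on the X chromosome, whose 590 tested genes had medians of -0.32 in P28 and -0.49 in P4M against Fgfr3-WT on the log2 scale; the part of this shift in the Bgn values was not tested.

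Asporin, a relative of decorin that carries a run of aspartates in place of a chain and binds TGF-beta, was the only member called higher in any comparison by edgeR. It was at 19.6, 1.77, 0.51, 5.58 and 2.39 TPM in Fgfr3-WT. In P28 it reached 528, 61.2, 379, 87.4 and 5.80 TPM. The P4M clones had 0.08, 0.08, 8.52 and 0.29 TPM. Of the P28 clones 4 were above every Fgfr3-WT clone and clone 5 was not, and 3 P4M clones were below every Fgfr3-WT clone while clone 3 was within their range. Aspn was 29.6-fold higher in P28 than in Fgfr3-WT (log2 fold change 4.89 with an SE of 1.54, adjusted p = 0.0227), and P4M against Fgfr3-WT did not pass (log2 fold change -1.48 with an SE of 1.46, adjusted p = 0.429; 95% interval -4.62 to 1.66). P4M against P28 gave a log2 fold change of -6.37 with an SE of 1.83, adjusted p = 0.0511, just outside the threshold. That comparison passed with DESeq2 (adjusted p = 0.000118), with only those groups in the fit (0.0468), with limma (0.0101), and in edgeR without Fgfr3-WT clone 1, Fgfr3-WT clone 3, P28 clone 5 or P4M clone 3, and its log2 fold change was -10.22 without the last of these. The P28 rise missed the threshold without Fgfr3-WT clone 2 (adjusted p = 0.0502).

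Fibromodulin, which binds collagen and the cross-linking enzyme lysyl oxidase, had the widest spread of the 8 in Fgfr3-WT. Its levels were 0.34, 2877, 233, 1410.4 and 2383 TPM in Fgfr3-WT. In P28 they were 231, 17.4, 165, 57.0 and 102 TPM. The P4M levels were 11.6, 25.9, 34.0 and 20.5 TPM. Fgfr3-WT clone 1, with 21 counts, was below all 9 cKO clones, and the other 4 were above all of them, clone 3 only by a little. Fmod was 14.9-fold lower in P28 (log2 fold change -3.90 with an SE of 1.29, adjusted p = 0.0291) and 65.2-fold lower in P4M (log2 fold change -6.03 with an SE of 1.58, adjusted p = 0.00771) than in Fgfr3-WT. P4M and P28 were not shown to differ (log2 fold change -2.12 with an SE of 1.30, adjusted p = 0.324; 95% interval -4.93 to 0.69). Fmod lost its P28 call without Fgfr3-WT clone 2 or P28 clone 2, 4 or 5, with no filter, with only the 2 groups in the fit, and with limma (adjusted p = 0.379); limma also did not call it in P4M (adjusted p = 0.0972).

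Lumican, a keratan sulfate SLRP that limits fibril thickness, was a low-level transcript. It was at 0.06, 5.02, 7.04, 120.3 and 2.19 TPM in Fgfr3-WT. The P28 clones had 0.66, 0.10, 0.09, 1 and 4.73 TPM, and the P4M clones 0.06, 0.21, 0.14 and 1.11 TPM. Clone 4 of Fgfr3-WT held most of the Lum of its group, with 7985 counts, clones 2 and 3 were also above every cKO clone, and clone 1 had 3 counts. Lum was 28.8-fold lower in P28 (log2 fold change -4.85 with an SE of 1.67, adjusted p = 0.0348) and 84.2-fold lower in P4M (log2 fold change -6.39 with an SE of 2.003, adjusted p = 0.0192). Without Fgfr3-WT clone 4 neither passed: the log2 fold changes became -1.73 (adjusted p = 0.304) and -3.29 (adjusted p = 0.0808), and all cKO against Fgfr3-WT gave -2.51 (adjusted p = 0.0718). The P28 call was also lost without any of P28 clones 1 to 4, with no filter, with only the 2 groups and with limma, and the P4M call without P4M clone 1, 2 or 3 and with limma. DESeq2 gave Lum no adjusted p. The cKO groups were not shown to differ (log2 fold change -1.55 with an SE of 1.64, adjusted p = 0.592; 95% interval -5.08 to 1.98).

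Prelp encodes an SLRP without a chain whose basic end binds heparan sulfate. It was at 0.21, 244, 821, 289 and 14.7 TPM in Fgfr3-WT. The P28 clones had 25.9, 7.17, 34.3, 38.3 and 19.5 TPM and the P4M clones 0.40, 1.33, 13.7 and 2.19 TPM. Fgfr3-WT clones 2, 3 and 4 were above every cKO clone, clone 5 was within the P28 range and clone 1 was below all others. Prelp was 13.7-fold lower in P28 (log2 fold change -3.77 with an SE of 1.40, adjusted p = 0.0474), close to the threshold, and 66.5-fold lower in P4M (log2 fold change -6.06 with an SE of 1.73, adjusted p = 0.012). The P28 call was lost when any 1 of 10 clones was left out (Fgfr3-WT clones 2, 3 and 4, all 5 P28 clones, and P4M clones 2 and 4), and with no scaling, no filter, only the 2 groups or limma. The P4M call held under every alternative run that could test it. P4M against P28 did not pass (log2 fold change -2.28 with an SE of 1.44, adjusted p = 0.337; 95% interval -5.38 to 0.81). An exon of Prelp overlaps one of Gm15851 on the opposite strand, which had at most 0.83 TPM. The library kit does not mark strand, so reads in the overlap cannot be told apart by strand. By the study's account only reads mapped without ambiguity were counted, and the effect of that rule on reads in the overlap was not tested.

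Osteomodulin, a keratan sulfate SLRP of bone matrix that binds osteoblasts through integrin, had the smallest fold change of the 8 between Fgfr3-WT and P28. Fgfr3-WT had 77.3, 1145, 158, 685 and 167 TPM. P28 had 184, 244, 187, 631 and 259 TPM, and P4M 80.5, 121, 126 and 43.5 TPM. All 4 P4M clones were below all 5 P28 clones, and Fgfr3-WT clones 2 to 5 were above all 4 while clone 1 lay within their range. Omd was 5.32-fold lower in P4M than in Fgfr3-WT (log2 fold change -2.41 with an SE of 0.76, adjusted p = 0.0194), while P28 against Fgfr3-WT did not pass (log2 fold change -0.91 with an SE of 0.67, adjusted p = 0.297; 95% interval -2.35 to 0.52). Despite the gap between the clones, P4M against P28 did not pass either (log2 fold change -1.50 with an SE of 0.73, adjusted p = 0.215; 95% interval -3.07 to 0.07). Without Fgfr3-WT clone 2, P4M clone 1 or P4M clone 4, or with limma (adjusted p = 0.0609), the P4M call was lost.

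Osteoglycin, a short SLRP first purified from bone, was the member called between the cKO groups. It was at 97.9, 526, 220.0, 183 and 269 TPM in Fgfr3-WT. P28 clones reached 1508, 408, 1115, 541 and 163 TPM. The P4M clones had 22.6, 13.2, 27.1 and 16.2 TPM. All 4 P4M clones were below all other 10 clones. P28 clones 1, 3 and 4 were above every Fgfr3-WT clone in TPM, clone 4 only by a little and not in CPM. Ogn was 33.2-fold lower in P4M than in P28 (log2 fold change -5.05 with an SE of 0.70, adjusted p = 0.00365) and lower than in Fgfr3-WT (log2 fold change -3.81 with an SE of 0.66, adjusted p = 0.000584). Both calls held in every alternative run, and P4M against P28 lay between -5.28 and -4.60 when each clone was left out in turn. P28 against Fgfr3-WT did not pass (log2 fold change 1.25 with an SE of 0.54, adjusted p = 0.085; 95% interval 0.08 to 2.42), except with DESeq2 (adjusted p = 0.0448) and in edgeR without Fgfr3-WT clone 2 (0.0330) or P28 clone 5 (0.0327). In all cKO against Fgfr3-WT Ogn was called lower (log2 fold change -1.28 with an SE of 0.46, adjusted p = 0.0341), but that contrast averages a positive and a negative group difference on the log scale, and the mean over the 9 cKO clones was in fact higher on the linear scale (609 against 452 CPM, counts scaled by library size).

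**Figure D3:**
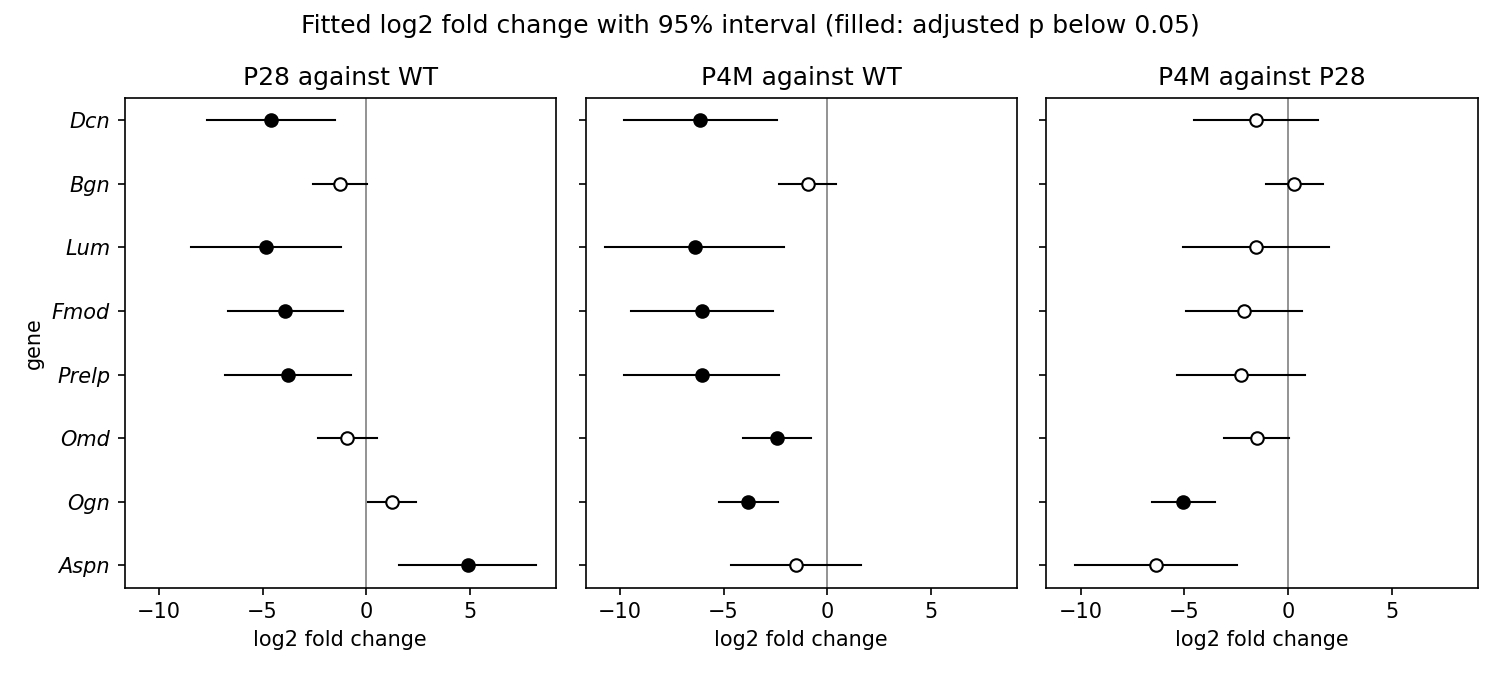
Fitted log2 fold change (x axis, same scale in each panel) of the 8 tested members (y axis) with its 95% interval, for P28 and P4M relative to Fgfr3-WT and for P4M relative to P28; filled points have an adjusted p below 0.05. Aspn at 4.89 is the only filled point to the right of 0, and Ogn at -5.05 the only one filled between the cKO groups.

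Keratocan, the keratan sulfate SLRP of the cornea, had 64 counts in Fgfr3-WT clone 2, 1 count in clone 5 and 0 in the other 12 clones. Epiphycan, an SLRP of epiphyseal cartilage, had at most 5 counts in any clone. A count of 0 allows up to 3 counts, or 0.0564 to 0.121 CPM depending on the library, and 13 of 14 clones were at or under 3 counts for each gene. Such limits cover counting error only.

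In all cKO clones against Fgfr3-WT, the lower members were Dcn (log2 fold change -5.36 with an SE of 1.18, adjusted p = 0.00235) and Fmod (log2 fold change -4.96 with an SE of 1.08, adjusted p = 0.00216). Prelp (log2 fold change -4.91 with an SE of 1.18, adjusted p = 0.00392) and Lum (log2 fold change -5.62 with an SE of 1.38, adjusted p = 0.00453) also fell. Omd fell less (log2 fold change -1.66 with an SE of 0.57, adjusted p = 0.0271), and that call was lost without Fgfr3-WT clone 2 or 4 or P4M clone 4, with no filter and with limma. Limma also lost those of Fmod (adjusted p = 0.126) and Prelp (0.0753). The Ogn call was lost without Fgfr3-WT clone 2 or 5, P28 clone 2 or 4, or P4M clone 2 or 4, with no filter and with limma. Bgn (log2 fold change -1.09 with an SE of 0.51, adjusted p = 0.0947) and Aspn (log2 fold change 1.71 with an SE of 1.25, adjusted p = 0.28) were not called. For Aspn, as for Ogn, the pooled value joins groups whose fitted differences from Fgfr3-WT had opposite signs. The differences of Aspn in P4M and of Ogn in P28 were not called. The pooled sign of Aspn turned when P4M clone 3 was left out (log2 fold change -0.24, edgeR adjusted p = 0.862).

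Spread between clones was itself large for many of these genes. On log2 CPM, the SD among the 5 Fgfr3-WT clones was 5.49 for Fmod, 4.84 for Prelp, 4.01 for Dcn and 3.80 for Lum, where the median over all tested genes was 0.51. For Aspn, Omd, Ogn and Bgn it was lower, at 1.94, 1.69, 0.89 and 0.81. In P4M the SD was 0.29 for Bgn, 0.45 for Ogn, 0.68 for Fmod and 0.73 for Omd, beside 0.31 over all genes. It was 2.96 for Aspn, 2.19 for Dcn, 2.09 for Prelp and 1.535 for Lum. In P28 it ran from 0.71 for Omd to 2.60 for Aspn, beside 0.33 over all genes. Fgfr3-WT clone 1 was the lowest of its group for 7 of the 8 members, Aspn being the exception. Dcn, Lum, Fmod and Prelp were all under 1 TPM there while its Bgn, Omd, Ogn and Aspn were not. The same clone had the highest Aspn of its group, at 19.6 TPM, with Acan at 75.9 and Col2a1 at 74.3 TPM. It was also the only clone with Y-linked transcripts (Ddx3y at 42.7 TPM), and the part of sex in its values was not tested. With this clone left out, the calls numbered 5 of 8 in P28, 6 in P4M and 7 in all cKO clones relative to Fgfr3-WT, and 2 between P4M and P28, beside 42%, 49%, 50.6% and 12.2% of all tested genes called in either direction; with all clones these shares were 38.9%, 45.9%, 48.8% and 7.22%.

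After removal of the group means, log2 CPM of Dcn and Lum varied together over the 14 clones (Pearson's r = 0.82), as did Fmod and Prelp (0.76), Dcn and Prelp (0.74) and Dcn and Fmod (0.74). Bgn and Ogn varied together as well (r = 0.79), and both were lowest in P28 within clone 5. Aspn had the lowest values, down to -0.34 with Lum. These are descriptions over points that share libraries and depth. Fgfr3-WT clone 1 was the lowest of its group for each of Dcn, Lum, Fmod and Prelp. For Fmod it was at -0.45 log2 CPM, where the next lowest clone of the group had 8.94. How much of these correlations rests on that clone was not tested. Rank correlations were lower, at a Spearman's rho of 0.42 for Fmod and Prelp and 0.56 for Bgn and Ogn, and within the first 4 genes down to 0.29 for Lum and Fmod.

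**Figure D4:**
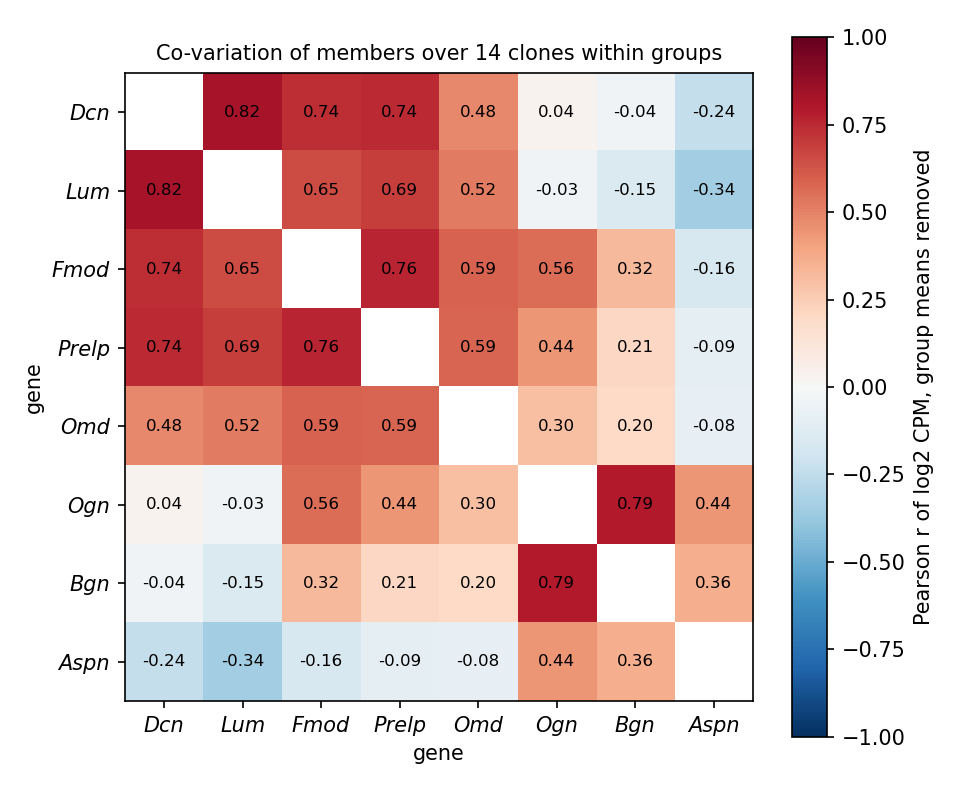
Pearson's r of log2 CPM after removal of group means for each pair of the 8 tested members over 14 clones (color scale from -1 to 1). Dcn, Lum, Fmod and Prelp form a block of 0.65 to 0.82, Bgn pairs with Ogn at 0.79, and Aspn is near or below 0 with the block. Fgfr3-WT clone 1 was the lowest of its group for every gene of the block.

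The 2 genes closest in pattern to each member by the same measure were, for Dcn, Ly6a (r = 0.94) and Rpp25l (r = 0.93). For Lum they were Daxx (r = 0.93) and Mtus2 (r = 0.92), for Fmod Rab37 (r = 0.97) and Hcn2 (r = 0.97) and for Prelp Ntrk3 (r = 0.95) and Tnfrsf23 (r = 0.94). They were Fam71e1 (r = 0.90) and Tubb2a-ps2 (r = 0.90) for Bgn, D8Ertd738e (r = 0.93) and Gm43118 (r = 0.91) for Omd, Gm37626 (r = 0.91) and Rasl11b (r = 0.89) for Ogn and Mmp17 (r = 0.92) and Ptms (r = 0.90) for Aspn. Each pair is the top of all other tested genes over 14 clones, so that high values follow from the search.

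Of the 10 genes, 9 lie in 3 neighbourhoods of the mouse genome (build mm10), and Bgn lies alone on the X chromosome (chrX:73483602-73495933). Dcn, Lum, Kera and Epyc share chr10:97479609-97682454, where the 837 tested genes of chromosome 10 had a median log2 fold change of -0.39 in P28 and -0.43 in P4M against Fgfr3-WT. Prelp and Fmod share chr1:133910304-134048277. Aspn, Omd and Ogn follow each other on the forward strand within chr13:49544443-49624501, a span of 80.1 kb inside the Cenpp gene of the opposite strand. An exon of Aspn overlaps one of Cenpp, and reads in the overlap cannot be told apart by strand. Cenpp was at 0.41 to 2.51 TPM in Fgfr3-WT, 7.06 to 13.96 in P28 and 4.59 to 12.4 in P4M, and the part of the overlap in the Aspn values was not tested. Ecm2, the next SLRP family gene beyond this trio, was at 0.43 to 5.74, 1.43 to 7.64 and 0.13 to 0.31 TPM and was lower in P4M than in P28 (log2 fold change -3.82, adjusted p = 0.0203). Of the 20 other tested genes within 1 Mb of the trio, 2 were lower in P4M than in P28, Ecm2 among them, beside 3.88% of all tested genes.

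The promoter sequences of this trio are shown because its members shared an order of group medians in TPM, highest in P28 and lowest in P4M. For Omd this held for medians only, since its mean was 244 CPM in P28 and 460.1 CPM in Fgfr3-WT and its fitted log2 fold change was -0.91. Each is the 250 bases before the RefSeq transcription start (GRCm38.p6, forward strand), in lower case, 5′ to 3′, with capitals marking TATAAA or TGTGGT on either strand. They cover chr13:49544193-49544442 for Aspn, chr13:49582212-49582461 for Omd and chr13:49607765-49608014 for Ogn.
Aspn: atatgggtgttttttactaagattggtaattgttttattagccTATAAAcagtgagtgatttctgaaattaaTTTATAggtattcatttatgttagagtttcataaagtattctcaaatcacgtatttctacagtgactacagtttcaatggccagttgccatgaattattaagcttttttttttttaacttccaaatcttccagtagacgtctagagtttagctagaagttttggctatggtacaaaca
Omd: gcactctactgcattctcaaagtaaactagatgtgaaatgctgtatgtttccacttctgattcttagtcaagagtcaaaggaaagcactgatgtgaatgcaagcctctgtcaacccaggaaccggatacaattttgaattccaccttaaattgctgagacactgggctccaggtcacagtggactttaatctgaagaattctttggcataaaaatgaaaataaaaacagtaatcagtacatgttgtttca
Ogn: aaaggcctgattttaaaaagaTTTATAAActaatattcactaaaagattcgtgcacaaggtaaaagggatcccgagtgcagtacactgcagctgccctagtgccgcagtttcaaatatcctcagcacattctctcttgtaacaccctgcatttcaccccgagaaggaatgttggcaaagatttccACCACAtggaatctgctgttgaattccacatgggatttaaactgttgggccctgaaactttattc
The letters TATAAA stood in the Aspn window 207 and 178 bases before the start and in the Ogn window 229 and 227 bases before it, the last pair overlapping on opposite strands. TGTGGT, the core that RUNX factors bind, occurred once in the Ogn window, 65 bases before the start, overlapping a CANNTG match, and in neither other window. Over 32851 promoter windows of this length, 12.4% held TATAAA and 14.1% TGTGGT on either strand. The 6-letter CANNTG (bound by basic helix-loop-helix factors) was found once for Aspn and 3 times for Ogn, beside 66.2% of all windows, and TGANTCA (AP-1) and ACAAAG (SOX) in none of the 3, beside 6.75% and 16.5%. The Omd window held none of the 5. These matches describe letters and say nothing of binding.

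The genes that build, cut and meet SLRPs were taken as lists, and values beside their names are log2 fold changes in all cKO against Fgfr3-WT, by edgeR, unless another comparison is named. In that contrast 23.1% of all tested genes were called higher and 25.7% lower, and each list's count stands beside these shares. For the linker that joins a chain to its core protein, 2 of 6 genes were lower in all cKO than in Fgfr3-WT and 4 were not called, with a list median of -0.36 where all tested genes had -0.05. The lower pair was Xylt1, which starts the chain (-4.01, adjusted p = 0.000261), and B3gat3 (-0.85, adjusted p = 0.000964). For chondroitin and dermatan sulfate synthesis 7 of 16 fell and 3 rose, with a list median of -0.78. The largest were Csgalnact1, which adds the first sugar of the chondroitin chain (-4.07, adjusted p = 3.88e-05), Chst3, a 6-O-sulfotransferase (-3.71, adjusted p = 0.000543), and Chst15, which adds a further sulfate and rose (3.16, adjusted p = 9.76e-05). Chst3 was a low-level transcript, with medians of 1.68 TPM in Fgfr3-WT, 0.3 in P28 and 0.155 in P4M. In P28 8 of the 16 fell and 1 rose, beside 19.7% of all tested genes lower and 19.2% higher. In P4M 7 fell and 2 rose, beside 23.6% lower and 22.3% higher. Between P4M and P28 1 fell and 1 rose, beside 3.88% lower and 3.34% higher. For keratan sulfate 3 of 5 genes were tested and 1 fell, the galactosyltransferase B4galt4 (-1.52, adjusted p = 0.011), whose value is the median of the 3.

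Of 7 tested proteases known to cut SLRPs or their precursors, 5 rose in all cKO clones and 2 (Htra1 and Mmp13) were not called, with a median of 2.29. They were Tll1 (3.43, adjusted p = 0.0338), the aggrecanases Adamts4 (3.18, adjusted p = 0.00149) and Adamts5 (2.75, adjusted p = 9.37e-05), Bmp1, which trims the biglycan precursor (2.29, adjusted p = 0.000139), and the membrane protease Mmp14 (1.93, adjusted p = 0.000153). In P28 the same number rose, beside 19.2% of all tested genes, and in P4M 4 did, beside 22.3%. Tll1 was lower in P4M than in P28 (-5.67, adjusted p = 0.0339), where 3.88% of all tested genes were lower. Its medians were 0.01 TPM in Fgfr3-WT, 3.96 in P28 and 0.05 in P4M. Of 10 collagen and lysyl oxidase genes, with a median of 1.20, 3 rose, a share near that of all genes: Col1a1, the main fibril chain of bone (6.47, adjusted p = 0.00451), Col5a1 (2.84, adjusted p = 6.4e-05) and Col5a2 (1.53, adjusted p = 0.0494). Col1a1 was at 0.30 to 251 TPM in Fgfr3-WT and at 1842 to 12374 TPM in the cKO clones, so its groups did not overlap, while Lox, which encodes lysyl oxidase, was not called (-0.56, adjusted p = 0.564).

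Among 15 growth factors and receptors that SLRPs bind, 6 rose and 1, the clearance receptor Lrp1, fell (-0.55, adjusted p = 0.0129), and the list median was 0.18. The largest rises were those of Bmp4 (6.48, adjusted p = 0.000159), the endothelial receptor gene Kdr, which was at most 3.12 TPM (4.59, adjusted p = 0.00371), and Bmp2 (4.33, adjusted p = 0.000336), and Tgfb1 rose by less (0.93, adjusted p = 0.00889). Of 7 tested genes among the 8 other SLRP family genes, Chad, a cartilage protein, fell (-4.16, adjusted p = 0.00217) and Podnl1 rose (3.71, adjusted p = 0.0212), with a list median of -1.12. Chad was low in every group, with medians of 0.54 TPM in Fgfr3-WT, 0.17 in P28 and 0.045 in P4M. In the same contrast 5 of 6 osteoblast genes rose and 4 of 6 chondrocyte genes fell, beside 23.1% of all tested genes higher and 25.7% lower. The part of these cell type genes in the SLRP values was not tested.

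**Figure D5:**
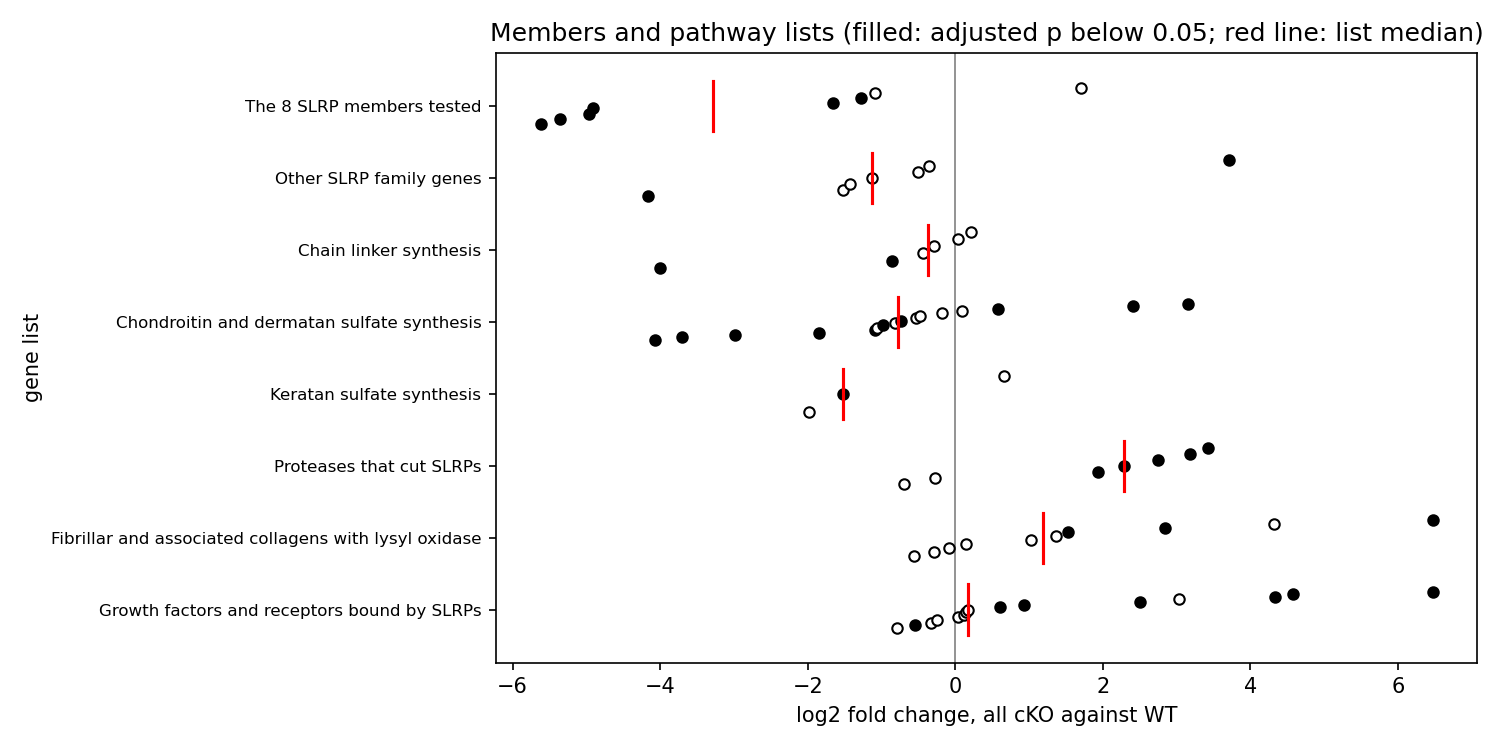
Fitted log2 fold change in all cKO against Fgfr3-WT (x axis) of each tested gene in the SLRP set and in 7 lists of related genes (y axis); filled points have an adjusted p below 0.05 and red lines are list medians. The SLRP median is at -3.29, the protease median at 2.29, and the lists of chain synthesis have points on both sides of 0.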

How the data were processed

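RNA had been prepared from 14 cultured clones with a SMART-Seq v4 kit, which does not mark strand, and the submitters' processing notes name mm10, FastQC, TopHat, Bowtie2, HTSeq and DESeq2. The authors deposited raw counts per gene, not normalized, and the deposited TPM and FPKM values were scaled by the authors for gene length and depth. The counts went into edgeR 4.0.16 (R 4.3.3), where filterByExpr on the 3 groups chose the genes, TMM set the scaling, and 1 robust quasi-likelihood fit of group means covered all 14 clones. Benjamini-Hochberg adjustment ran over 17358 genes, with calls at 0.05. CPM uses the TMM-scaled library size, and log2 CPM a prior count of 2. TPM served for levels between genes, and the FPKM sum was an alternative. Clones were grouped by their source label and numbered in accession order.

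Alternatives were DESeq2 1.42.0, RLE or no scaling, no filter or at least 10 counts in every clone, only the groups compared, a log2 fold change of at least 1, limma 3.58.1 on log2(TPM + 1), and leaving out each clone. The steps were tested on simulated data. Members, gene lists and markers were chosen with earlier results of these data known. Named from each pathway list were at most the 3 called genes with the largest change in all cKO against Fgfr3-WT, and those that a count of 5 or fewer needs; Lox, Tgfb1, Htra1, Mmp13, Ecm2, Cenpp and Gm15851 were added after their values were seen. Replicates of 1 group differed by more than sampling noise. Tables of expected counts, depth-normalized counts and rlog values were not used. Protein sequences were not used here, and promoter sequences were matched by symbol for 8 of the 10 members.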

Additional observations from a re-analysis of the deposited data

Results flagged for a closer look

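In 24 groups of clones screened, 1 for each tested member and label group, 4 clones lay far from the rest of their group on log2 CPM. Chance alone gives about 1 in 20 groups if the groups are independent. These groups share the same clones and some members varied together, so the count cannot be set against that rate. Biglycan in P28 clone 5 was at 106 CPM, and its gap to the nearest clone was 0.895 of the group's range. In P4M clone 3 biglycan was at 1929 CPM, with a gap of 0.863 of a narrow range. Fibromodulin in Fgfr3-WT clone 1 was at 0.684 CPM, with a gap of 0.720 of the range. Osteomodulin was highest in P28 clone 4, at 504 CPM, with a gap of 0.725 of the range.

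Osteoglycin differed between the P4M and P28 cKO groups. The log2 fold change against Fgfr3-WT at P4M minus that at P28 was -5.05 (edgeR adjusted p = 0.00365), which is the test of P4M against P28 itself, since both share the Fgfr3-WT clones. All 4 P4M clones were below all 5 P28 clones.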

How the results depend on the processing

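With all genes and clones, 5, 6, 1 and 6 of the 8 tested members were called in P28 and in P4M relative to Fgfr3-WT, between P4M and P28, and in all cKO relative to Fgfr3-WT. The first count became 2 with no filter, 2 with at least 10 counts in every clone (which leaves Dcn, Lum and Aspn untested), 2 with only the groups compared and 1 with limma on log2(TPM + 1), where the share of all genes called, 38.9% in the main analysis, was 22.3%, 41.4%, 33.6% and 40.8%. The others became 3, 2 and 2 with limma, and the third became 2 with DESeq2 and 2 with only the groups compared, as the share of all genes called there went from 7.22% to 15.1% and 17.9%. Leaving out 1 clone gave counts of 2 to 5, 4 to 7, 1 to 2 and 4 to 7. Of 448 single-member values with 1 clone left out, 399 kept direction and call, 37 lost the call, 11 gained it and 1 turned: Aspn in all cKO against Fgfr3-WT, at -0.24 without P4M clone 3, where leaving out 1 clone gave -0.24 to 2.80. Of 200 values under the other settings 176 kept both, 20 lost the call and 4 gained it. Limma moved the median log2 fold change of all genes to 0.20 in P28, 0.05 in P4M, -0.14 in P4M against P28 and 0.13 in all cKO. In FPKM the mean summed SLRP level was 4137, 1937 and 1318, against 5696, 3007 and 1891 TPM. The cause of these shifts was not tested. No paired analysis was possible because the labels give the clones no replicate number. Low counts limit Kera and Epyc and, in some clones, Dcn, Lum and Aspn, and the number of clones and their spread limit the rest. Between Fgfr3-WT and cKO, genotype, age, time in culture and the number in the library names cannot be told apart.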
